A study of Homo sapiens with 24 samples.

Results

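The MCM helicase genes examined here were MCM2 to MCM10 and MCMBP, 10 of the 21386 genes in the count tables, taken by name after matching Ensembl identifiers to gene symbols. MCM3AP and MCMDC2, which carry similar names, were not counted as members. mRNA was profiled by RNAseq in 24 libraries from human A375 melanoma and A549 lung cancer cells that a double thymidine block held at the G1/S boundary. In each line, cells with the doxycycline (Dox)-inducible hairpin shMCM7 and parental cells were kept with Dox (1 μg/ml for 72 hours) or without it (noDox), which gave 8 groups of 3 libraries. The shMCM7 cells were a puromycin-selected population transduced with a lentiviral pRSIT17 vector, not a single clone. The control libraries are called parental in the labels and in the study's RNAseq methods, and other parts of its text describe control cells with a scrambled hairpin.

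MCM2 to MCM7 form the hexameric ring that is loaded onto replication origins in G1 by the origin recognition complex, CDC6 and CDT1. In S phase the ring binds CDC45 and the GINS complex and becomes the CMG helicase that unwinds DNA at the fork. MCM8 and MCM9 form a separate helicase with a role in homologous recombination, MCM10 assists the activation of the CMG helicase, and MCMBP binds MCM subunits outside the chromatin-bound ring. Several MCM genes are known targets of E2F factors, which drive gene expression at the G1/S transition.

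The hairpin target is shown first, because it was designed against MCM7. Below are the 21 bases of the target strand and the guide strand that pairs with them, with the seed of the guide (bases 2 to 8) and its site in the target in capitals.
target: cagaggaggatttCTACGAAa
guide: tTTCGTAGaaatcctcctctg
The whole target was found in transcripts of 1 gene, MCM7, in GENCODE 29. In the transcript MCM7-201 it covered bases 1629 to 1649 of 2957 and spanned the junction of exon 8 and exon 9 of 15, within the coding part. In the genome it lay between chr7:100097728-100097836 (GRCh38, minus strand), a stretch that includes an intron. It was found in 3 of the 5 coding transcripts of MCM7. In the other 9 MCM genes the closest stretch differed from the target at 6 bases or more, the longest matching run was 10 bases, and 0 transcripts held the seed site.

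The libraries of the lines differed in depth, with 146656792 to 283721575 counts per library in A375 and 17911338 to 23452823 in A549. All 10 genes were measured in each library. The lowest count was 1322 in A375 and 259 in A549, both for MCM9. Levels are given as CPM, counts relative to the library size after TMM scaling in edgeR within a line, and averages as mean ± SD of 3 libraries. In A375, 5 of 8 melanoma markers were above 1 CPM in every library, SOX10 among them, while MLANA, DCT and TYR were below 1 CPM. In A549, 7 of 8 epithelial markers were above 1 CPM, with CLDN7 below it. The 8 melanoma markers summed to 679 to 859 CPM in A375 and to 37.5 to 53.4 CPM in A549.

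In some libraries, MCM7 did not follow the label. In A375, the library labelled shMCM7 noDox replicate 1 had 131 CPM of MCM7, while the other shMCM7 noDox libraries had 353 and 359 CPM. In A549, 3 libraries had less than 150 CPM, namely those labelled shMCM7 Dox replicate 3 (95.3 CPM), shMCM7 noDox replicate 2 (99.7 CPM) and parental noDox replicate 2 (88.6 CPM). The remaining 9 A549 libraries had 299 to 339 CPM. All labels were kept. A375 results were computed with and without the doubtful library, and A549 results are given by label and then library by library.

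In A375 cells, MCM7 was the gene of the family that fell most after induction of the hairpin. It measured 76.8, 76.4 and 77.2 CPM in the 3 shMCM7 Dox libraries, 131, 353 and 359 CPM in shMCM7 noDox, 370, 355 and 357 CPM in parental Dox and 352, 342 and 352 CPM in parental noDox. The induced libraries lay below all 9 others. In bulk RNA, fewer cells with an mRNA and less of it per cell cannot be told apart. The log2 fold change between shMCM7 Dox and noDox was -1.87 (SE 0.30, 95% confidence interval -2.55 to -1.19, FDR = 0.0012, edgeR). Without noDox replicate 1 it was -2.21 (SE 0.052, FDR = 3.6e-07). Against parental cells, both with Dox, it was -2.23 (SE 0.048, FDR = 5.3e-08), the smallest p-value among the 16086 genes tested.

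A gene was called changed at a fold change of at least 1.5 with p under 0.01 and an FDR under 0.05. By this rule, MCM7 was the 1 member of the family called between shMCM7 Dox and noDox, where 12% of all genes tested were called. None of the other 9 members was called with or without noDox replicate 1. By an FDR under 0.05 alone, 6 of the 10 members were lower in shMCM7 Dox (MCM3, MCM4, MCM7, MCM8, MCM9 and MCM10) and 0 were higher, while 22.4% of all genes were lower by that rule. MCM7 is the target of the hairpin, and of the other 9 members 5 were lower. The log2 fold changes of the other 9 members ranged from -0.50 to 0.16 with a median of -0.19, while the median of all genes was 0.0045. Leaving out noDox replicate 1 gave 7 members past an FDR of 0.05, the same 6 lower and MCM6 higher (log2 fold change 0.19).

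**Figure D1:**
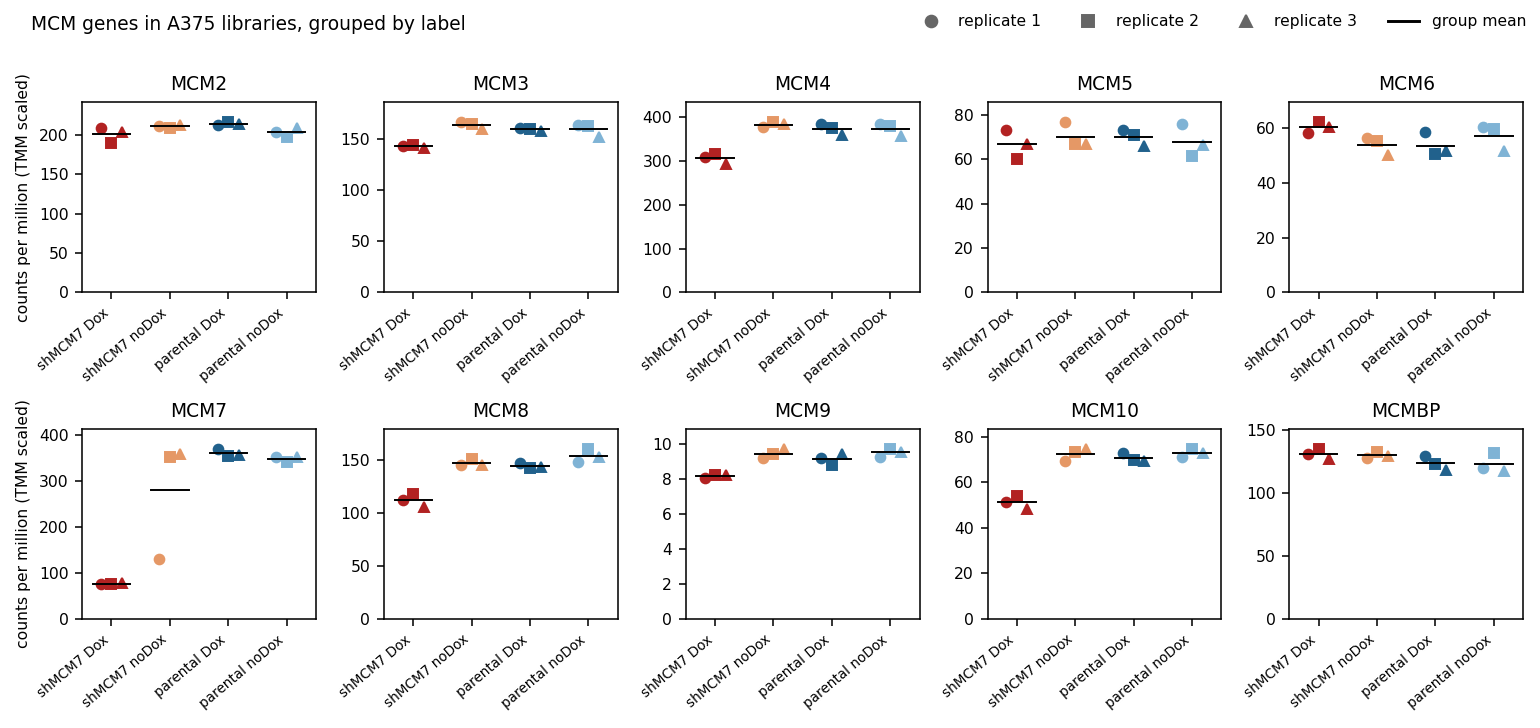
TMM-scaled CPM (y axes, linear from 0) of the 10 MCM genes in the 12 A375 libraries, by label. Each symbol is 1 library, its shape the replicate number, and the line is the mean of 3. MCM7 lies between 76.4 and 77.2 CPM in shMCM7 Dox and at 131 CPM in shMCM7 noDox replicate 1, where MCM4, MCM8 and MCM10 lie at 378, 145 and 69.3 CPM.

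Among the ring subunits, MCM4 showed the next largest difference. MCM4, which with MCM6 and MCM7 can form a helicase in vitro, measured 311, 315 and 295 CPM in shMCM7 Dox and 378, 388 and 384 CPM in shMCM7 noDox. The parental libraries held 384, 374.7 and 359 CPM with Dox and 384, 381 and 357 CPM without it, so the induced libraries lay below all 9 others. The log2 fold change between shMCM7 Dox and noDox was -0.32 (SE 0.050, FDR = 9.3e-04, edgeR), a fold of 1.25.

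MCM3, which sits next to MCM5 in the ring, differed less. Its level was 143, 144 and 142 CPM in shMCM7 Dox, 166, 165 and 159 CPM in shMCM7 noDox, 161, 160.0 and 158 CPM in parental Dox and 164, 163 and 152 CPM in parental noDox. The induced libraries lay below all 9 others, whose groups overlapped one another. The log2 fold change between shMCM7 Dox and noDox was -0.19 (SE 0.046, FDR = 0.0082, edgeR).

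MCM2 and MCM5, which flank the gate through which DNA enters the ring, did not pass the test. MCM2 measured 209, 189 and 204 CPM in shMCM7 Dox against 212, 208 and 213 CPM in noDox (log2 fold change -0.074, 95% confidence interval -0.19 to 0.046, FDR = 0.29, edgeR). MCM5 measured 73.3, 60.3 and 67.1 CPM against 76.6, 66.9 and 66.9 CPM (log2 fold change -0.069, interval -0.25 to 0.11, FDR = 0.52, edgeR). For both genes the induced libraries overlapped the other 9.

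MCM6 was the ring subunit with a positive value. It measured 58.2, 61.9 and 60.4 CPM in shMCM7 Dox and 56.1, 55.0 and 50.1 CPM in shMCM7 noDox, and the parental libraries ranged from 50.4 to 60.1 CPM. The induced libraries therefore lay above the uninduced ones but within reach of the parental ones. The log2 fold change was 0.16 (interval 0.030 to 0.30, FDR = 0.0502, edgeR), at the edge of the threshold. It passed without noDox replicate 1 (0.19, FDR = 0.041) or without shMCM7 Dox replicate 1 (0.19, FDR = 0.042).

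Outside the ring, MCM10 and MCM8 had the largest differences after MCM7. MCM10, which helps to activate the loaded helicase, measured 51.3, 54.0 and 48.5 CPM in shMCM7 Dox, 69.3, 73.2 and 74.5 CPM in shMCM7 noDox, 73.1, 69.7 and 69.5 CPM in parental Dox and 71.1, 74.7 and 73.1 CPM in parental noDox. The 3 induced libraries were the lowest of the 12. The log2 fold change between shMCM7 Dox and noDox was -0.50 (SE 0.058, FDR = 2.2e-04, edgeR).

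MCM8, the partner of MCM9, measured 112, 118 and 105 CPM in shMCM7 Dox, 145, 151 and 145 CPM in shMCM7 noDox, 147, 142 and 143 CPM in parental Dox and 147, 160.0 and 152 CPM in parental noDox. Again the induced libraries were the lowest. The log2 fold change was -0.39 (SE 0.055, FDR = 5.4e-04, edgeR).

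MCM9 was the least abundant member, at 8.07, 8.22 and 8.22 CPM in shMCM7 Dox and 9.19, 9.39 and 9.70 CPM in shMCM7 noDox, with 8.79 to 9.70 CPM in the parental libraries. Its induced libraries lay below the other 9 by a narrow margin. Its log2 fold change of -0.21 (SE 0.069, FDR = 0.035, edgeR) passed the test, but not when any 1 of 5 libraries was left out: FDR = 0.075, 0.064 and 0.073 without shMCM7 Dox replicates 1, 2 and 3, and 0.10 and 0.13 without noDox replicates 2 and 3.

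MCMBP measured 131, 135 and 127 CPM in shMCM7 Dox and 128, 133 and 130 CPM in shMCM7 noDox. The groups overlapped, and the log2 fold change was 0.0097 (interval -0.099 to 0.12, FDR = 0.89, edgeR). HROB, which recruits the MCM8-MCM9 helicase, was in a list of 3 related genes and was lower in shMCM7 Dox (log2 fold change -0.53, SE 0.062, FDR = 2.1e-04, edgeR). The other genes of that list did not pass, with 0.014 for MCM3AP (FDR = 0.84) and -0.22 for MCMDC2 (FDR = 0.58).

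As a summary over libraries, 6 members (MCM3, MCM4, MCM7, MCM8, MCM9 and MCM10) had all 3 shMCM7 Dox libraries below the other 9 A375 libraries, which was so for 21.3% of the 16334 genes that passed the filter on low counts. MCM7 is among the 6 as the target of the hairpin. MCM2, MCM5, MCM6 and MCMBP overlapped.

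The library labelled shMCM7 noDox replicate 1, which had low MCM7 without Dox, is described by itself. Its MCM7 level of 131 CPM was below the 342 to 370 CPM of the 8 other A375 libraries outside shMCM7 Dox. That level was still above the 76.4 to 77.2 CPM of the induced libraries. In the same library MCM2, MCM4, MCM6, MCM8, MCM9 and MCMBP lay within the range of those 8 libraries. MCM3 (166 CPM against 152 to 165) and MCM5 (76.6 against 61.6 to 75.9) lay just above it, and MCM10 (69.3 against 69.5 to 74.7) just below. The partners that were lower after induction (MCM3, MCM4, MCM8, MCM9 and MCM10) lay above their induced libraries, with MCM10 at 69.3 CPM here and at most 54.0 CPM there, and MCM8 at 145 CPM here and at most 118 CPM there. MCMBP, which did not pass the test, lay within its induced range. These are values of 1 library with a doubtful label, and whether the partners follow MCM7 was not tested.

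Dox alone was tested in parental A375 cells. No member passed the test, and 0 members and 0 genes of 15993 were called (0%). At an unadjusted p under 0.05 there were 1121 genes and 0 members, and DESeq2 called 2 genes, neither of them a member. The log2 fold changes ranged from -0.095 for MCM6 to 0.068 for MCM2, and that of MCM7 was 0.045 (interval -0.056 to 0.15, FDR = 0.88, edgeR).

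The Dox effect in shMCM7 cells was then compared with that in parental cells in 1 model over the 12 A375 libraries. MCM7 was the only member called, among 10.5% of all genes. At an FDR under 0.05, 5 of the 10 members were lower (16.5% of all genes were lower) and 0 were higher. Apart from MCM7, the target of the hairpin, 4 of the 9 other members were lower. The difference was -1.92 for MCM7 (FDR = 0.0011), -0.45 for MCM10 (FDR = 4.5e-04), -0.32 for MCM4 (FDR = 0.0032), -0.30 for MCM8 (FDR = 0.0058) and -0.20 for MCM3 (FDR = 0.025), all from edgeR. It did not pass for MCM9 (-0.15, interval -0.33 to 0.031, FDR = 0.20), MCM2 (-0.14, FDR = 0.11), MCM5, MCM6 (0.26, FDR = 0.072) or MCMBP. The MCM3 difference fell short of the threshold without shMCM7 Dox replicate 3 (FDR = 0.052), shMCM7 noDox replicate 1 (0.054) or replicate 2 (0.065), parental Dox replicate 2 (0.059) or parental noDox replicate 3 (0.071), and MCM6 passed without parental Dox replicate 1 (0.023) or parental noDox replicate 3 (0.021).

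A comparison without the doubtful library is that of shMCM7 with parental cells, both with Dox, which shares its induced libraries with the first comparison. MCM7 was called, again as the only member, among 16% of all genes. At an FDR under 0.05, MCM3 (-0.16), MCM4 (-0.28), MCM7 (-2.23), MCM8 (-0.37) and MCM10 (-0.47) were lower, where 24.8% of all genes were. MCM6 was at 0.17 (FDR = 0.058) and MCM9 at -0.16 (FDR = 0.071), both short of the threshold. MCM3 passed with FDR = 0.015, but not without shMCM7 Dox replicate 3 (0.058), parental Dox replicate 2 (0.069) or parental Dox replicate 3 (0.0505), and MCM6 passed without parental Dox replicate 1 (0.24, FDR = 0.011).

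Without Dox, no member differed between shMCM7 and parental cells past the threshold, although 1.65% of all genes were called and 2.97% passed an FDR of 0.05. A fit blocked on replicate called 484 genes in place of 266, and again no member passed. None of the members had an unadjusted p under 0.05, and DESeq2 called 342 genes, none a member. The log2 difference of MCM7 was -0.31 (interval -0.95 to 0.33, FDR = 0.64, edgeR), and 0.031 without noDox replicate 1. For the other 9 members it ranged from -0.089 for MCM6 to 0.073 for MCMBP.

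**Figure D2:**
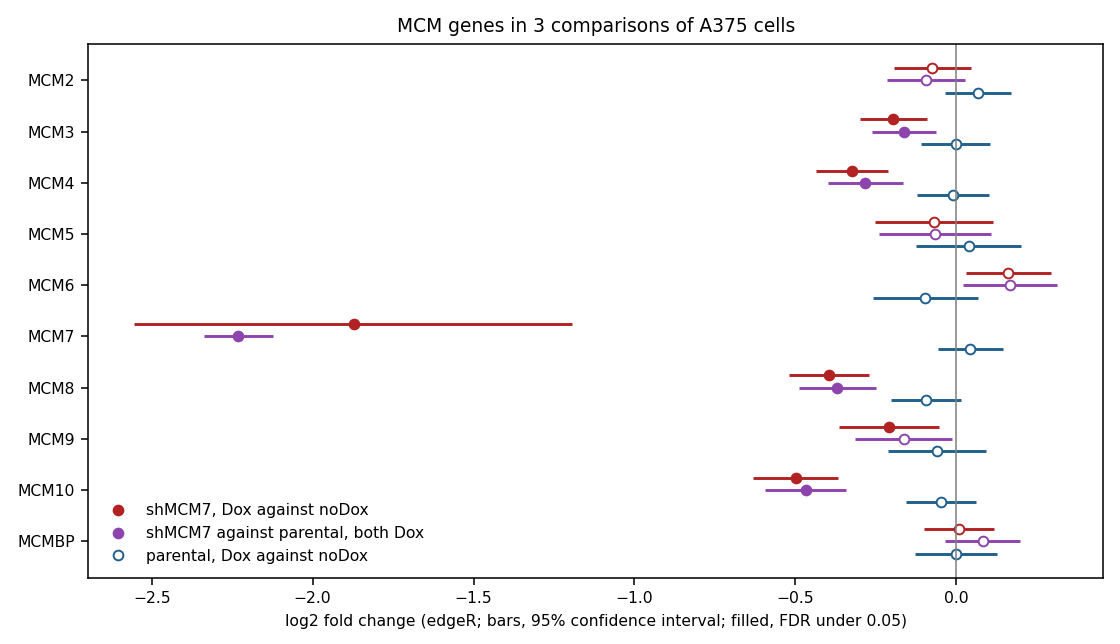
log2 fold changes (x axis) of the 10 MCM genes in 3 A375 comparisons from edgeR. Points are estimates, filled at an FDR under 0.05, and bars are 95% confidence intervals. MCM7 stands at -1.87 and -2.23 in the comparisons with the induced hairpin, MCM10, MCM8, MCM4 and MCM3 at -0.50 to -0.16, and in parental cells with Dox each interval includes 0.

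For comparison between genes, levels were divided by the length of all annotated exons of a gene. This length counts exons of every isoform, so it can exceed the length of the mRNA that the cells made. In parental noDox A375 cells, the order by CPM per kb of exon was MCM7 (79.5 ± 1.4), MCM4 (53.7 ± 2.1), MCM3 (43.7 ± 1.8), MCM2 (41.6 ± 1.1), MCMBP (20.6 ± 1.3), MCM8 (19.9 ± 0.83), MCM6 (13.9 ± 1.2), MCM10 (13.4 ± 0.34), MCM5 (9.26 ± 0.99) and MCM9 (0.76 ± 0.018). MCM3 and MCM2, MCMBP and MCM8, and MCM6 and MCM10 did not differ beyond their spread. In shMCM7 Dox cells, MCM7 was at 17.5 ± 0.090 CPM per kb and had dropped below MCM4 (44.0 ± 1.6), MCM2 (41.0 ± 2.1), MCM3 (39.2 ± 0.32) and MCMBP (21.8 ± 0.66).

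The share of MCM7 in the summed level of the 6 ring subunits, per kb of exon, was 33.5% ± 0.33 in parental Dox, 32.9% ± 0.78 in parental noDox and 10.6% ± 0.16 in shMCM7 Dox. In shMCM7 noDox it was 15.2% in replicate 1 and at most 33.3% in the other libraries. The summed CPM of the other 5 subunits was 795, 771 and 767 in shMCM7 Dox and ranged from 836 to 889 in the 9 other A375 libraries. In shMCM7 noDox replicate 1, this sum was 889 CPM, at the upper end of that range.

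**Figure D3:**
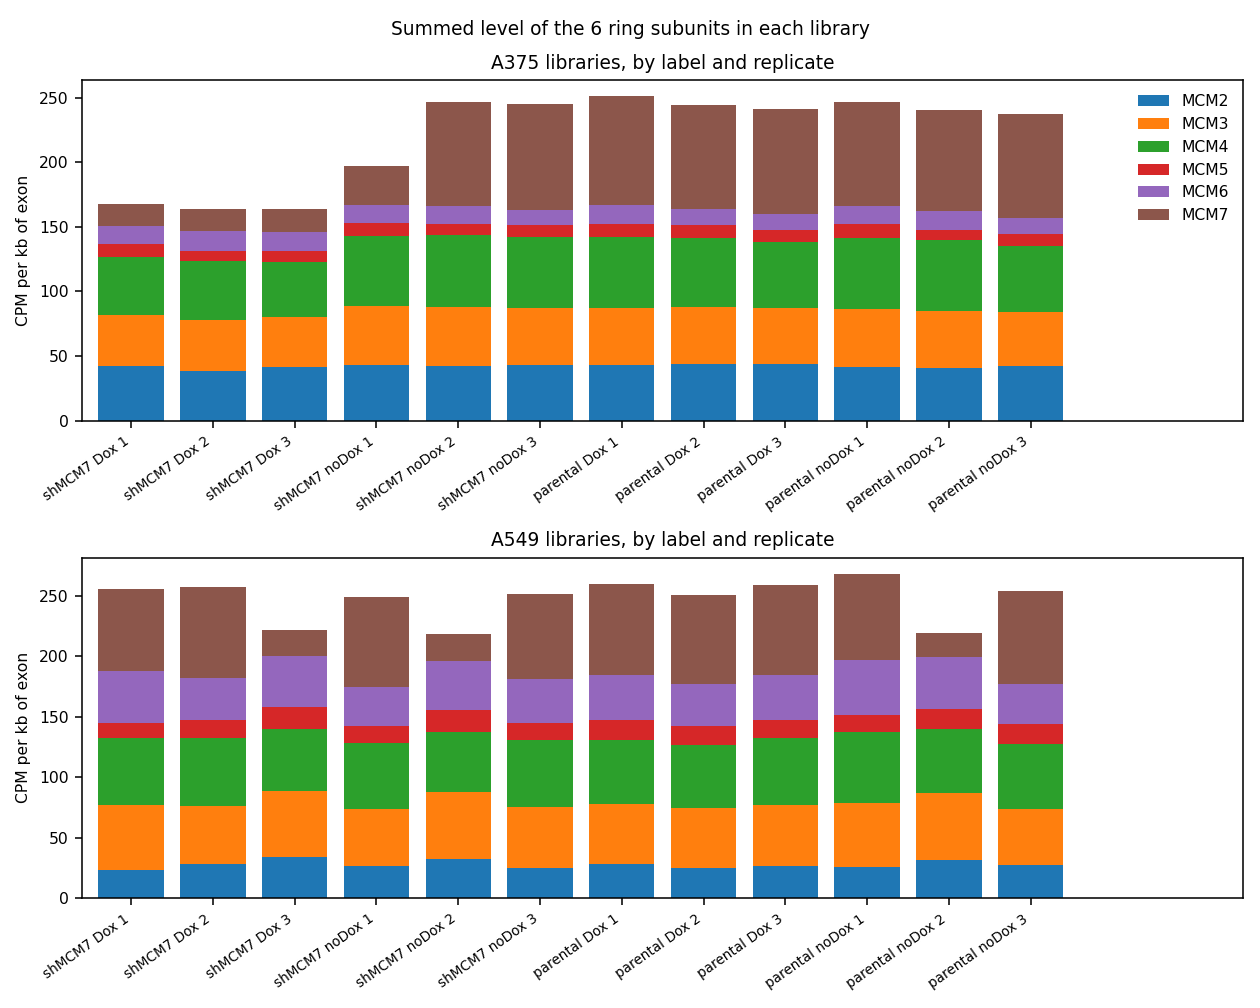
Level of MCM2 to MCM7 in each library as stacked bars in CPM per kb of exon (y axis from 0), by label and replicate, for A375 (top) and A549 (bottom). MCM7, the uppermost part, makes up 10.4% to 10.7% of the bar in A375 shMCM7 Dox and 9.2% to 10.4% in the A549 libraries labelled shMCM7 Dox 3, shMCM7 noDox 2 and parental noDox 2.

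In A549 cells, no member passed the test in the comparisons by label. Low MCM7 was found in 1 library each of shMCM7 Dox, shMCM7 noDox and parental noDox, so these comparisons did not set low MCM7 against high MCM7, and whether the labels of these libraries are right could not be settled from the counts. Between the libraries labelled shMCM7 Dox and noDox, 0% of 13550 genes were called, with 61 genes and 0 members at an unadjusted p under 0.05 and 0 called by DESeq2. The log2 difference of MCM7 was -0.028 (interval -1.35 to 1.29, FDR = 0.9997, edgeR), and its group held 299, 333 and 95.3 CPM with Dox and 329, 99.7 and 309 CPM without. In parental A549 cells, 0% of 13494 genes were called, with 1137 genes and 0 members at an unadjusted p under 0.05 and 9 genes, none a member, called by DESeq2. Leaving out the libraries under 150 CPM of MCM7 was a choice made after seeing the data. It kept only libraries with 299 to 339 CPM of MCM7, so it could not show a difference that goes with low MCM7. In that fit, 0 members passed an FDR of 0.05 in either comparison.

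The A549 libraries with low MCM7 carried 3 different labels, so they are set one by one against the range of the 9 others, with no test. MCM2 was higher in them, at 165 CPM in shMCM7 Dox 3, 160.2 CPM in shMCM7 noDox 2 and 153 CPM in parental noDox 2, against 114 to 137 CPM in the others. MCM3 was also above the range of the others, at 202, 199.9 and 205 CPM against 169 to 196 CPM. Among all genes that passed the filter, 19.8% had these 3 libraries above the other 9 and 19.2% had them below.

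Besides MCM7, by whose level these libraries were chosen, MCM10 was the member below the range. It measured 82.9 CPM in shMCM7 Dox 3, and 80.6 CPM in shMCM7 noDox 2 and in parental noDox 2, against 87.3 to 101 CPM. The remaining 6 members overlapped the other libraries. MCM4 measured 357, 347 and 369 CPM against 367 to 409 CPM, with 1 of the 3 libraries inside the range. MCM5 measured 135, 133 and 118 CPM against 93.4 to 121 CPM, again with 1 library inside. MCM6 was at 168 to 177 CPM against 131 to 186 CPM, MCM8 at 125 to 138 CPM against 116 to 138 CPM, MCM9 at 13.3 to 16.1 CPM against 15.6 to 18.4 CPM, and MCMBP at 160.5 to 177 CPM against 144 to 178 CPM.

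The lines can be set side by side for the members that left the range of the other libraries. MCM10 was lower with low MCM7 in both lines, although in A375 shMCM7 noDox replicate 1 it was only just under the range. MCM3 was below the others in A375 and above them in A549. MCM4, MCM8 and MCM9 were below the others in A375 and overlapped in A549, while MCM2 overlapped in A375 and was above the others in A549. Among all genes, 21.3% lay below the others in A375, and in A549 19.2% lay below and 19.8% above. Single members outside the range are therefore only described, and the difference between the lines was not tested.

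**Figure D4:**
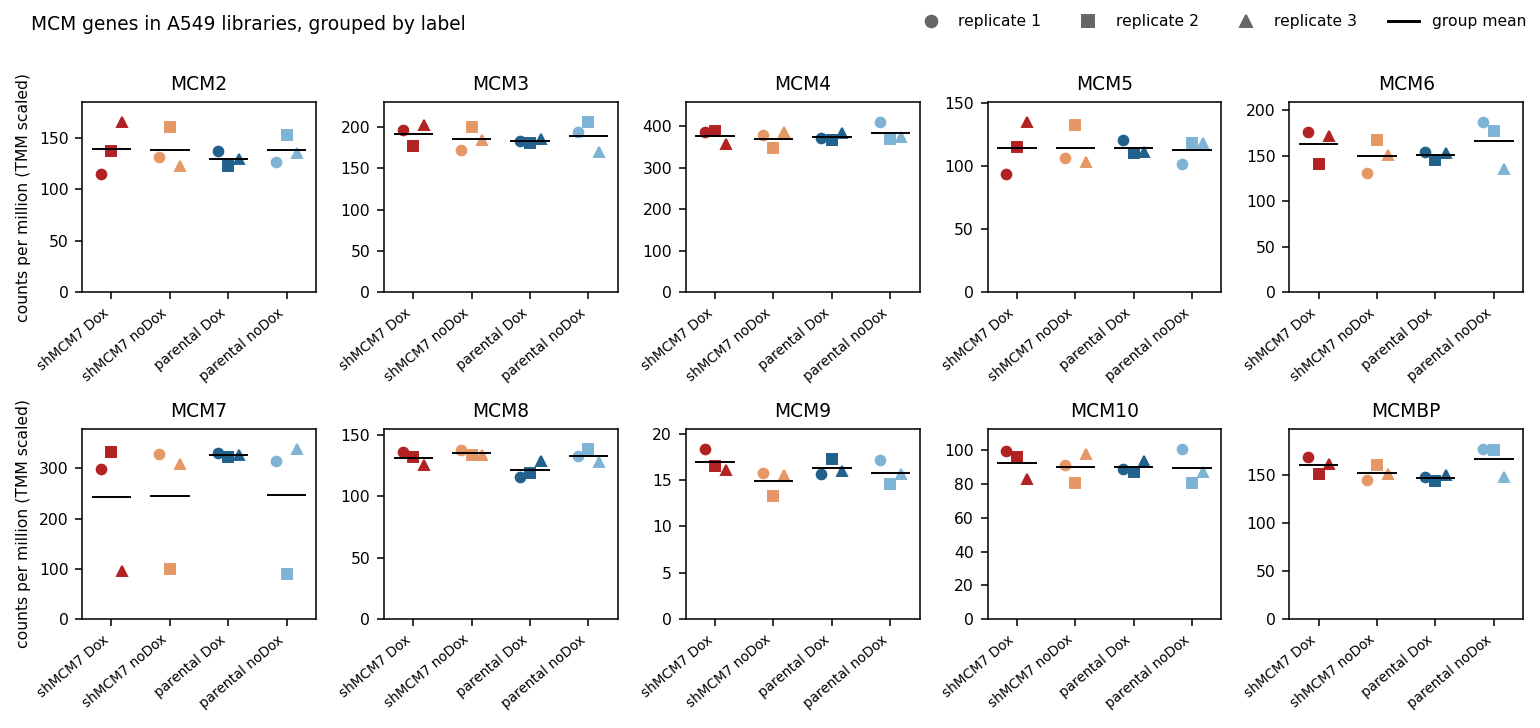
TMM-scaled CPM (y axes, linear from 0) of the 10 MCM genes in the 12 A549 libraries, by label. Each symbol is 1 library and the line is the mean of 3. MCM7 lies below 100 CPM in 1 library each of shMCM7 Dox, shMCM7 noDox and parental noDox, and these libraries hold the highest MCM2 values, at 153 to 165 CPM.

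Genes whose pattern over the 12 libraries of a line was most like that of MCM7 were found by the root mean square difference of centered log2 CPM. In A375, these were CRISPLD1 (0.14), PIK3R3 (0.20), GPM6B (0.22), PPP1R1B (0.22) and AL358075.4 (0.24), where MCM7 itself varied by 0.97. CRISPLD1, the closest, measured 2.71 to 3.05 CPM in shMCM7 Dox, 6.57 CPM in shMCM7 noDox replicate 1 and 14.3 to 17.1 CPM in the other libraries. Over the 12 libraries GPM6B was near the floor, at 0.065 to 0.32 CPM, and PPP1R1B was low, at 0.44 to 2.57 CPM. The closest member of the family was MCM10 (0.77), at rank 1677 of 16305 genes, followed by MCM8 (0.81) at rank 2195.

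In A549, NT5DC2 (0.068), HNRNPUL1 (0.089), TRIM14 (0.10), CHST12 (0.13) and BIRC3 (0.14) were closest to MCM7, which varied by 0.77. MCM10 was again the closest member (0.69), at rank 3590 of 13767 genes. The mean profile of MCM2 to MCM6 in A375 varied by 0.054 and was most like PDCD5 (0.024), AATF (0.025) and CLPTM1L (0.025). Within the family, MCM3 was closest to this mean, of which it is a part, at 0.044.

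The other genes of origin licensing and firing were described with the members. Among 9 licensing genes, 6 were lower in A375 shMCM7 Dox than in noDox at an FDR under 0.05 and 0 were higher. Their median log2 fold change was -0.24, and 22.4% of all genes tested were lower by that rule. The largest differences were those of ORC6 (-0.58), ORC1 (-0.48), CDC6 (-0.44) and ORC5 (-0.25), all subunits of the origin recognition complex except CDC6, which helps to load the ring. None of the 9 was called, where 12% of all genes were.

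Of 17 genes for CMG partners and origin firing, 14 were lower at an FDR under 0.05 and 0 were higher, with a median of -0.35. For all genes tested, the shares were 22.4% lower by that rule and 12% called in either direction. The genes called were DBF4B (-0.72), a regulatory subunit of the CDC7 kinase that phosphorylates MCM proteins, and TIMELESS (-0.59), a protein of the fork protection complex. Of 20 E2F-driven S phase genes, 10 were lower and 0 higher, with a median of -0.17. The largest differences were found in TK1 (-0.54), RRM1 (-0.48) and POLD1 (-0.45), which act in nucleotide supply and DNA synthesis, and in POLE (-0.40).

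Of 20 G2/M genes, 17 were lower and 0 higher, with a median of -0.52. Among them 7 were called, with CCNB1 (-0.92), PLK1 (-0.85), CENPE (-0.85) and CDC25C (-0.77) first. The shares over all genes were 22.4% lower and 12% called in either direction. The 20 genes summed to 1516 to 1679 CPM in shMCM7 Dox and to 1991 to 2151 CPM in the other A375 libraries. In A549 they summed to 2286 to 2413 CPM in the low-MCM7 libraries and to 2450 to 2834 CPM in the 9 others. The licensing genes overlapped there, with sums of 528 to 558 CPM against 551 to 636 CPM. The S phase genes overlapped as well, with sums of 2763 to 2920 CPM against 2799 to 3011 CPM. The part of cell cycle position in the MCM values was not tested.

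Against parental cells, both with Dox, where the doubtful library plays no part, 5 of 9 licensing genes, 13 of 17 CMG partner and firing genes, 10 of 20 S phase genes and 18 of 20 G2/M genes were lower at an FDR under 0.05. By that rule 2 S phase genes were higher, and 24.8% of all genes were lower. In the parental Dox comparison, 0 genes of these lists passed. The median of the 10 MCM members, -0.20 in shMCM7 cells, lay between that of the S phase list and that of the licensing list.

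MCM7 shares its locus with other genes. Its exons overlap those of AP4M1 on the opposite strand by 392 bases, 8.9% of MCM7 exon sequence, and how the counting treated strand is not known. AP4M1 did not pass the test in A375 shMCM7 cells (log2 fold change 0.012, FDR = 0.88, edgeR), nor did the neighbors COPS6 (-0.098, FDR = 0.13), TAF6 (0.045, FDR = 0.57) and CNPY4 (-0.016, FDR = 0.84). MCM2 overlaps an antisense gene by 1113 bases, 22.7% of its exon sequence. Without the strand setting, reads of the pair cannot be told apart, and the effect on the MCM2 counts was not tested.

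Promoters were searched for E2F-like letters, because the ring genes are known E2F targets and MCM3 and MCM4, like MCM7, were lower in A375 shMCM7 Dox. The 250 bases before each RefSeq start (GRCh38.p14) were available for 8 of the 10 members, not for MCM4 and MCM5. They were searched on both strands for TTTGGCGC, TTTCCCGC, TTTCGCGC and TTTGCCGC, which occur in 2.8% of 35116 such windows. The letters were present for MCM3, MCM6, MCM7 and MCMBP, and not for MCM2, MCM8, MCM9 and MCM10. MCM7 had 3 windows and MCMBP had 2, not all of them with the letters. Stretches of MCM3, MCM6 and MCM7 are shown with the matched letters in capitals, each on the strand of its gene (minus), with overlapping matches joined. The MCMBP stretch and the MCM7 match farther from the start are not shown.
MCM3, chr6:52284894-52284931: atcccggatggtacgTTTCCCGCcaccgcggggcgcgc
MCM6, chr2:135876507-135876610: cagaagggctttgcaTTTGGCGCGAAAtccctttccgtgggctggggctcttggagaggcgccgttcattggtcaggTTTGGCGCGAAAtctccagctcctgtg
MCM7, chr7:100101398-100101421: acgtggggggcgacgTTTCGCGCc
The MCM6 window held 4 matches, TTTGGCGC on the strand of the gene and TTTCGCGC on the other strand in each capital stretch, overlapping by 4 bases, and the MCM7 window held a match 187 and another 9 bases before the start. Of the members with such letters, MCM3 was lower in A375 shMCM7 Dox, MCM6 and MCMBP did not pass, and MCM7 is the target of the hairpin. MCM8, MCM9 and MCM10, which were lower, had none of these letters in the window, and MCM4, also lower, was not searched.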

How the data were processed

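Per the labels, base calling used bcl2fastq 2.19, trimming Trimmomatic, alignment STAR 2.7.1 to GRCh38.p10 and counting featureCounts. The annotation release and the strand setting of the counting are not given in the sources used here. The deposited values are raw counts of reads per gene, as whole numbers without normalization, 1 table for each library, and the study's methods describe 3 biological replicates. No replicates were identical (chi-square per degree of freedom 1.98 to 114 over 24 pairs).

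Of 21386 identifiers, 21349 were found in GENCODE 29. In R 4.3.3, the counts were tested with edgeR 4.0.16 (TMM, filterByExpr, glmQLFit, glmQLFTest, Benjamini-Hochberg FDR over all genes tested), and DESeq2 1.42.0 served as an alternative, with other scalings, filters, a shared dispersion, a replicate block and the removal of each library. Tables and figures were made in Python 3.11.15. The test was checked on simulated data. Log2 CPM for likeness used a prior count of 2. Named genes were the 10 members, the 5 genes most like MCM7 in each line, the 3 most like the mean of MCM2 to MCM6 in A375, and up to 4 genes from each list with the largest changes that passed. The members and lists were chosen with earlier results of these data known.

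Same-numbered libraries were taken to deviate together in 1 comparison, shMCM7 against parental A375 cells without Dox (r over genes 0.22 to 0.32 in 3 pairs). The main fit there had no block, and the block changed the call of no member. Between Dox and noDox, r was 0.072 to 0.24 in A375 shMCM7 cells and 0.023 to 0.26 in A375 parental cells. For A549 shMCM7 libraries it ranged from -0.68 to 0.22. The split of A549 libraries at 150 CPM of MCM7 uses a measured value, so it was described and not tested.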

Additional observations from a re-analysis of the deposited data

Results flagged for a closer look

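For 5 members, Dox acted differently on shMCM7 than on parental A375 libraries at an FDR under 0.05 (edgeR interaction term). The difference in log2 fold change was -1.92 for MCM7, -0.45 for MCM10, -0.32 for MCM4, -0.30 for MCM8 and -0.20 for MCM3. Without shMCM7 noDox replicate 1 it was -2.25 for MCM7, -0.48 for MCM10, -0.32 for MCM4 and -0.31 for MCM8, and MCM3 did not pass (-0.18, FDR = 0.054). Groups of 3 libraries were too small to look for single outlying values.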

How the results depend on the processing

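The count of members called was the same under each alternative in all 7 comparisons. The count past an FDR of 0.05 stayed within 1.5 times its main value. MCM4, MCM7, MCM8 and MCM10 passed in the shMCM7 Dox comparison, its difference from parental cells and the comparison with Dox in both under every alternative run. MCM6 passed in shMCM7 Dox against noDox with DESeq2's size factors (FDR = 0.044), library totals (0.046), the DESeq2 Wald test (0.040), at least 10 counts in every library (0.048) and the replicate block (0.035), each with a log2 fold change of 0.16 or 0.17. The Dox effect difference of MCM6 passed with library totals (FDR = 0.048) and with the block (0.035), and with Dox in both MCM6 passed with library totals (0.039), no filter (0.045) and the filter at 10 counts (0.049). MCM9 passed there with the dispersion of all 12 libraries (0.036).

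The numbers of the libraries count as pairs in 1 comparison, and elsewhere the block is a fit by number (r of 0.072 to 0.24 for shMCM7 Dox and noDox). With the block, 7 members passed in shMCM7 Dox against noDox, and MCM6 was the 1 member whose call it changed. The block reversed MCMBP in parental cells (0.00064).

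Reversals were limited to members that did not pass. All were near 0 with all libraries except MCM7 without Dox, which was -0.31 and turned to 0.031 without shMCM7 noDox replicate 1. In parental cells with Dox, MCMBP turned to 0.00071 with DESeq2's size factors and with the Wald test, and to 0.0032 with all 12 libraries, as did MCM3 (0.0023). When single libraries were left out, the values of the members that reversed ranged in shMCM7 Dox against noDox from -0.14 to 0.00067 (MCM5) and -0.012 to 0.035 (MCMBP), in parental cells from -0.038 to 0.018 (MCM3), -0.045 to 0.016 (MCM4), -0.027 to 0.13 (MCM5) and -0.036 to 0.052 (MCMBP), in the Dox effect difference from -0.043 to 0.047 (MCMBP), with Dox in both from -0.14 to 0.0091 (MCM5), and without Dox from -0.023 to 0.13 (MCM5), -0.52 to 0.031 (MCM7), -0.034 to 0.0075 (MCM9) and -0.034 to 0.019 (MCM10). The cause was not tested. Counts not divided by length gave MCM7 shares of 8.99% in shMCM7 Dox, 29.3% in parental Dox and 28.8% in parental noDox. Levels moved by less than 1 SD with other scalings. For all genes, the count called without Dox was 266, but 484 with the block and 173 and 177 without parental noDox replicates 2 and 3, and in parental cells it was 0, but 12 with the block, 2 by DESeq2 and 1 without Dox replicate 3. In the A549 parental libraries it was 0, but 9 by DESeq2 and 300 without noDox replicate 3, with 0 members past an FDR of 0.05 in each. Intervals were wider in A549 than in A375. The A549 libraries were shallower, and the groups shMCM7 Dox, shMCM7 noDox and parental noDox each mixed low and high MCM7. What widened the intervals was not tested.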
